A study of Mus musculus with 8 samples.

Results

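The genes described here encode extracellular matrix, or mark cells that lie around the vessels and on the surface of the brain. They are every collagen gene (Col followed by chain type and number) and every laminin chain gene in the deposited table, together with 20 genes listed by symbol that mark mural cells, meningeal fibroblasts or their secreted products. Matching Ensembl identifiers to mouse symbols found 75 such genes among the 22337 in the table. They comprise 44 collagens, 11 laminins, 8 mural genes and 12 meningeal, fibroblast or secreted matrix genes. Their RNA was measured in the nucleus accumbens, which lies in the ventral striatum, of male C57BL/6 mice exposed to morphine (4 libraries) or to saline (4 libraries). Morphine is an opioid, and saline is its vehicle. The series is titled as a study of chronic exposure; the sources used here give neither dose, schedule nor age, and do not say whether each library came from its own animal. The p-values therefore reflect differences among 8 libraries that may be partly technical.

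Collagens are triple-stranded proteins. Types I, III, V and XI form fibrils in connective tissue, type IV forms the sheet of the basement membrane, and laminins, trimers of an alpha, a beta and a gamma chain, form a second sheet that binds cells to it. In the brain these proteins lie mainly around vessels and under the meninges. Mural cells are the pericytes and smooth muscle cells that wrap vessels, and fibroblasts lie in the meninges and around larger vessels.

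Among the genes that fell with morphine, 4 have an upstream window in the RefSeq promoter table (GRCm38.p6) that touches no annotated exon. They are shown because they are among the members the comparison turns on: the fibril chain genes Col11a1, Col11a2 and Col3a1, and Myoc. Each window holds the 150 bases before the RefSeq start, read 5′ to 3′ on the gene's strand, which is plus for all of them. They lie at chr3:114030390-114030539 (Col11a1), chr17:34038988-34039137 (Col11a2), chr1:45311388-45311537 (Col3a1) and chr1:162639000-162639149 (Myoc). The RefSeq start of Col11a2 lies upstream of its GENCODE start. Capitals mark matches, on either strand, to TATAAA (the core of the TATA box), to CCAAT (the CCAAT box) or to GGGCGG (the core of the GC box).
Col11a1: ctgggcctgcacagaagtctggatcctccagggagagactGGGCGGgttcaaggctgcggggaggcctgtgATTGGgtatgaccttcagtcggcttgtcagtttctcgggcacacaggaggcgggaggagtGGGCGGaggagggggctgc
Col11a2: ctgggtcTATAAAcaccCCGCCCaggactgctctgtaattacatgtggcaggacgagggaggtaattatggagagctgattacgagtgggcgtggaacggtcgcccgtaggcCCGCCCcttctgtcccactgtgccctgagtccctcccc
Col3a1: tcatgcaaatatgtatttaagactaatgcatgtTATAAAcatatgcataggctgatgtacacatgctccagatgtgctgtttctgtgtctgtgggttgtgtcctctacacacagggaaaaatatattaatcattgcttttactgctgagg
Myoc: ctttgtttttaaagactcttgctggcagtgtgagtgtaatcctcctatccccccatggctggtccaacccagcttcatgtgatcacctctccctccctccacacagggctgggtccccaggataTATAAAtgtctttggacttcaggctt

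Col11a1 holds 2 matches to GGGCGG and 1 to the reverse complement of CCAAT. Col11a2 holds 1 TATAAA and 2 reverse complements of GGGCGG, and Col3a1 and Myoc hold 1 TATAAA each. No match overlaps another. The TATAAA match begins 26 bases before the start in Myoc, 117 in Col3a1 and 143 in Col11a2. A match is a description of these letters, not a known binding site. Of 32851 windows of the same length in the table, 7.6% hold TATAAA, 24.5% hold CCAAT and 28.6% hold GGGCGG on either strand. The 4 windows share no single motif.

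Levels are in FPKM, read fragments divided by transcript length and by the fragments mapped, so that genes can be compared per unit of length. Library sums ran from 486547.6 to 501627.6 with morphine and from 480003.6 to 540104.1 with saline. They say nothing of read depth, which is unknown. Mitochondrial genes made up 6.1 to 7.94% of the sum with morphine and 9.09 to 12.6% with saline. Genes at an FPKM of at least 1 numbered 12287 to 12347 with morphine and 12527 to 12655 with saline. Neither measure overlapped between groups. A change is the mean log2(FPKM + 1) of the morphine libraries minus that of the saline libraries, with its standard error (SE). This scale shrinks the changes of weakly detected genes. They were tested with limma over 12536 genes, and the adjusted p is limma's p after Benjamini-Hochberg adjustment over all of them, with a threshold of 0.05. As a check of the labelled tissue, markers of striatal projection neurons summed to between 516.6 and 696.5 FPKM in morphine libraries and between 1380 and 6134 in saline libraries, the highest being saline replicate 3. Markers of cortical neurons summed to between 2008 and 2219 FPKM in morphine libraries and between 1215 and 2042 in saline libraries, the lowest being saline replicate 3. The striatal sums did not overlap between groups and the cortical sums did; the part of either in the results was not tested. In such bulk samples, fewer cells of a type and less RNA per cell cannot be told apart.

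A minority of the tested members fell with morphine: 4 meningeal or secreted matrix genes, 3 fibril collagens, the mural gene Vtn and Col9a3. No type IV collagen or laminin passed the test. Of 39 members with enough signal to test, 9 fell, 30 did not pass and none rose. Col3a1, 1 of the 9, entered the test through the saline libraries alone, and without it 8 of 38 fell (21.1%, counted after seeing the data). The 9 are 23.1% of those tested, where 1.48% of all genes fell (186), 1.04% rose (130) and 2.52% passed in either direction. The members were chosen with earlier results of these data known, so shares here and below describe them and test nothing. With mitochondrial genes removed and the rest rescaled, 211 genes fell and 77 rose. At an unadjusted p under 0.05, limma had 19 members lower and 0 higher. Over all 12536 genes tested it had 1270 (10.1%) lower and 1256 higher. The median change of the tested members was -0.42, against 0.01 for all genes tested, and 34 members had a negative change. Such a median was not particular to the members. Markers of endothelium, astrocytes, oligodendrocytes and microglia had medians of -0.47, -0.42, -0.37 and -0.095. Those of striatal neurons, choroid plexus and ependyma, blood and cortical neurons had medians of -2.27, -0.92, -0.81 and 0.49. In 13 members (33.3%) all 4 morphine values lay below all 4 saline values, an arrangement seen in 6.1% of all genes tested.

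The number of falls depended on single libraries. Without morphine replicate 3, morphine replicate 4 or saline replicate 2, limma found none (20, 18 and 18 members were lower by the unadjusted p). Without morphine replicate 1 or morphine replicate 2 it found 3, without saline replicate 1 it found 4, and without saline replicate 3 it found 8. Without saline replicate 4 it found 14. Each of the 9 genes kept a negative change in all 8 of these fits, between -3.28 and -0.85. With all 8 libraries, none of the 9 passed without the filter on low values, or with the mean level of the striatal or endothelial markers as a covariate, and Col11a1 then had a change of 0.249 with the endothelial markers.

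**Figure D1:**
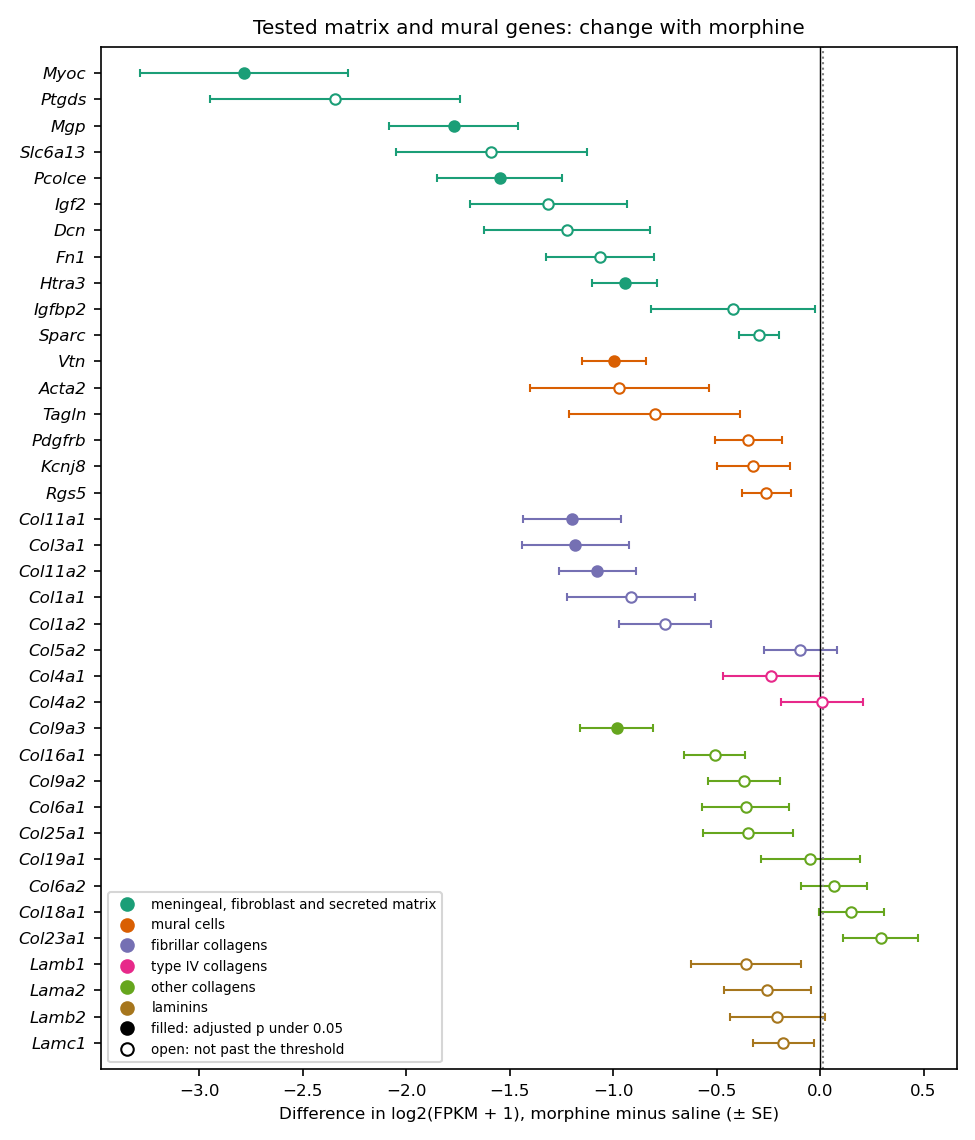
Difference in log2(FPKM + 1), morphine minus saline, with its standard error, for 38 tested members, grouped by role. Filled points are the 9 genes past the threshold, all left of 0; the dotted line, close to 0, is the median of all genes tested.

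Not every member could be tested. A gene was tested if at least 4 libraries reached an FPKM of 1. Of the 36 members that did not, 23 stayed under 1 in every library, among them the kidney and eye basement membrane chains Col4a3 and Col4a4, the cartilage collagen gene Col2a1 and the smooth muscle myosin gene Myh11. Among the 13 others, which reached 1 in 1 to 3 libraries, were the pericyte channel subunit gene Abcc9, the proteoglycan gene Lum and the laminin chain gene Lamb3. Of the 39 tested members, 31 reached 1 in all 8 libraries. In 6 more saline than morphine libraries reached it, and in 2 more morphine than saline libraries did. Col3a1 reached it in no morphine library. A filter on the mean over all 8 libraries kept the same 39 genes.

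Of the 12 meningeal, fibroblast and secreted matrix genes, 4 of 11 tested fell and none rose, with a median change of -1.32. All 11 had negative changes, and limma had 10 lower and 0 higher at an unadjusted p under 0.05. The number that fell ranged from 0 to 9 when single libraries were left out, with 9 without saline replicate 4, 4 without saline replicate 3 and 2 without either of morphine replicates 1 and 2. None passed without any of morphine replicates 3 and 4 and saline replicates 1 and 2.

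Myoc encodes myocilin, a secreted glycoprotein known from the eye (ENSMUSG00000026697, chromosome 1, 162639155 to 162649693, plus strand, GRCm38). It had 1.00, 9.61, 2.53 and 1.62 FPKM in morphine replicates 1 to 4, against 40.9, 34.4, 22.3 and 11.8 in saline replicates 1 to 4. The groups did not overlap. Its change was -2.78 ± 0.50 (SE, adjusted p = 0.0287), and it passed in 3 of 8 fits with 1 library left out, those without morphine replicate 2, saline replicate 3 or saline replicate 4.

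Mgp encodes matrix Gla protein, an inhibitor of calcification made by vascular cells and fibroblasts (ENSMUSG00000030218, chromosome 6, 136872435 to 136875823, minus strand). It had 27.8, 29.1, 10.6 and 11.2 FPKM in morphine replicates 1 to 4, against 76.3, 53.3, 67.5 and 56.7 in saline replicates 1 to 4. The lowest saline value was well above the highest morphine value, and the ratio of the means was 0.31. Its change was -1.77 ± 0.31 (SE, adjusted p = 0.0264), and 4 of 8 fits with 1 library left out passed, those without either of morphine replicates 1 and 2 or saline replicates 3 and 4.

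Pcolce encodes an enhancer of the protease that trims procollagens into fibril-forming chains (ENSMUSG00000029718, chromosome 5, 137605103 to 137613784, minus strand). It had 2.48, 3.74, 1.62 and 1.88 FPKM in morphine replicates 1 to 4, against 11.4, 6.96, 14.8 and 4.84 in saline replicates 1 to 4. Its change was -1.55 ± 0.30 (SE, adjusted p = 0.035). Htra3 encodes a secreted serine protease (ENSMUSG00000029096, chromosome 5, 35652023 to 35679782, minus strand). It had 3.25, 2.13, 1.84 and 2.83 FPKM in morphine replicates 1 to 4, against 6.14, 5.44, 6.18 and 5.01 in saline replicates 1 to 4. The saline libraries were nearly level for this gene, and its change was -0.94 ± 0.16 (SE, adjusted p = 0.0227). With 1 library left out, Pcolce passed only without saline replicate 3 or 4, and Htra3 only without morphine replicate 1 or saline replicate 3 or 4.

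**Figure D2:**
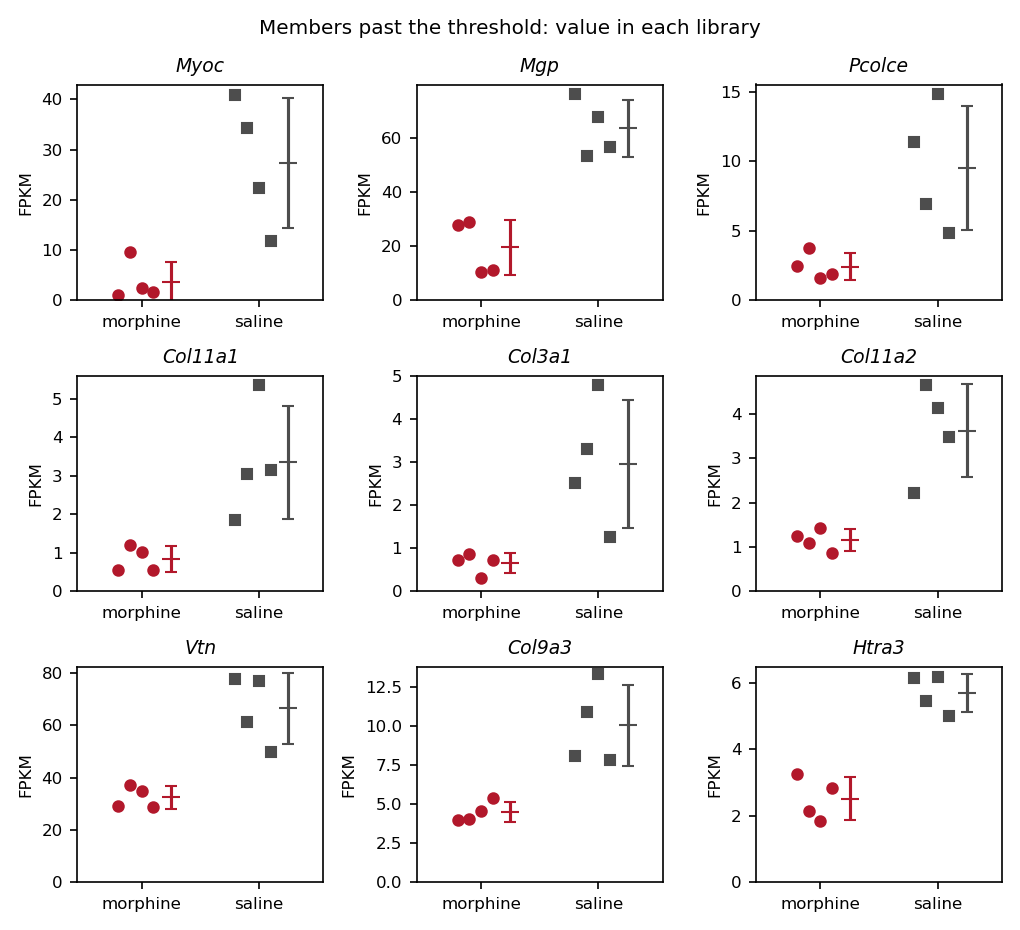
FPKM in each library of the 9 members past the threshold (circles, morphine; squares, saline; bars beside the points, mean ± SD, n = 4). In every panel the 4 morphine points lie below the 4 saline points, as in Vtn, with at most 37.33 in morphine and at least 49.83 in saline.

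Of the other genes of this group, several were at morphine levels in 1 saline library. Ptgds, the prostaglandin D synthase gene of meninges and oligodendrocytes, had 465.9, 368.2, 303.0 and 349.4 FPKM in morphine replicates 1 to 4. In saline replicates 1 to 4 it had 3951, 1548, 4572 and 435.8 FPKM. The highest saline value was 10.5 times the lowest, and saline replicate 4 lay inside the morphine range. Its change was -2.34 ± 0.61 (SE, adjusted p = 0.0709).

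Slc6a13, a GABA transporter gene of leptomeningeal cells, had 2.04, 1.66, 1.03 and 0.66 FPKM in morphine replicates 1 to 4, against 12.7, 4.07, 11.2 and 1.64 in saline replicates 1 to 4. Igf2, a growth factor gene of meninges and choroid plexus, had 19.5, 11.4, 14.9 and 11.1 FPKM in morphine replicates 1 to 4, against 56.1, 31.4, 62.3 and 15.0 in saline replicates 1 to 4. Dcn, the gene of the small proteoglycan decorin, had 4.86, 4.55, 2.45 and 2.82 FPKM in morphine replicates 1 to 4, against 13.3, 7.07, 21.3 and 3.97 in saline replicates 1 to 4. In each of these genes saline replicates 1 and 3 were the highest libraries and saline replicate 4 was among the morphine values. None passed (changes of -1.59 ± 0.46, -1.31 ± 0.38 and -1.22 ± 0.40, SE; adjusted p = 0.094, 0.0927 and 0.127). Without saline replicate 4, Ptgds, Slc6a13, Igf2, Dcn and the fibronectin gene Fn1 all passed, with changes of -3.04, -2.05, -1.72, -1.59 and -1.25 (adjusted p = 0.0118, 0.0202, 0.0141, 0.0366 and 0.0356).

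Fn1 encodes a matrix glycoprotein that links collagen to cells. It averaged 2.54 ± 0.75 FPKM in morphine and 6.65 ± 2.96 in saline libraries (SD, n = 4 each), without overlap, and did not pass with all 8 libraries (adjusted p = 0.0615). Igfbp2, a secreted binding protein of insulin-like growth factors, had 30.9, 32.4, 29.9 and 46.2 FPKM in morphine replicates 1 to 4, against 92.7, 61.2, 44.9 and 17.8 in saline replicates 1 to 4. Here saline replicate 4 was the lowest of all 8 libraries. Sparc encodes a collagen-binding protein made by several brain cell types. It averaged 113.2 ± 4.74 FPKM in morphine and 139.4 ± 12.2 in saline libraries (SD, n = 4 each), without overlap, with a change of -0.30 ± 0.10 (SE, adjusted p = 0.128). Lum, whose product decorates collagen fibrils, was not tested and lay between 0.32 and 0.80 FPKM in morphine and between 0.89 and 2.37 in saline libraries. Dcn and Lum lie 47.0 kb apart on chromosome 10. Among the 11 tested genes of this group, saline replicate 4 was the lowest saline library in 9 and saline replicate 3 the highest in 7.

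**Figure D3:**
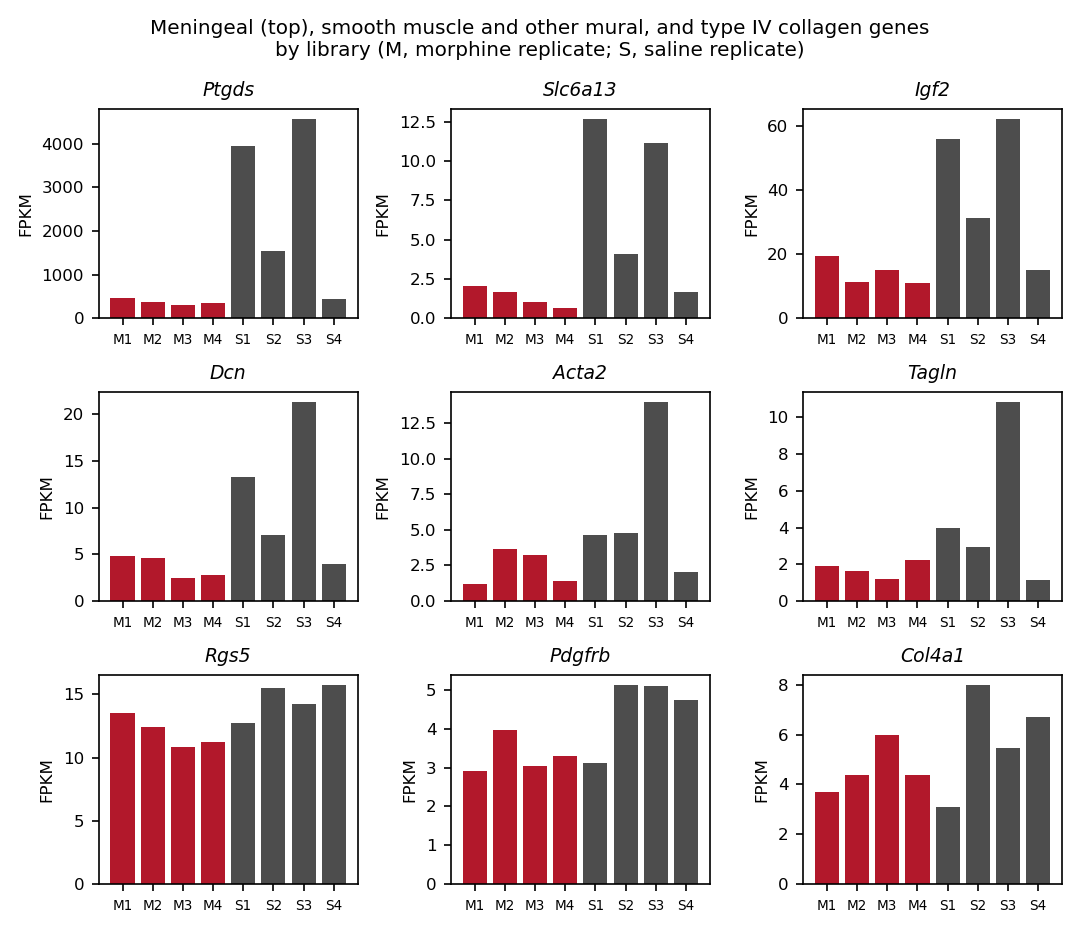
FPKM in each library (bars from 0; M1 to M4, morphine replicates 1 to 4; S1 to S4, saline replicates 1 to 4). Ptgds, Slc6a13, Igf2 and Dcn are high in S1 and S3 and at morphine levels in S4. Acta2 and Tagln are highest in S3 and also above the morphine range in S1 and S2. Rgs5 and Pdgfrb are within the morphine range in S1 and above it in S2 to S4. Col4a1 overlaps between groups.

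Of the 8 mural genes, 1 of 6 tested fell and none rose, with a median change of -0.57. Limma had 2 lower and 0 higher at an unadjusted p under 0.05. The median was -0.325 without saline replicate 3, and Vtn fell in 5 of 8 fits with 1 library left out, all but those without morphine replicate 3, morphine replicate 4 or saline replicate 2. Vtn encodes vitronectin, an adhesive glycoprotein that pericytes secrete (ENSMUSG00000017344, chromosome 11, 78499091 to 78502324, plus strand). It had 29.1, 37.3, 34.8 and 28.7 FPKM in morphine replicates 1 to 4, against 77.7, 61.2, 77.0 and 49.8 in saline replicates 1 to 4. Every saline library exceeded every morphine library, the ratio of the means was 0.489, and the change was -0.996 ± 0.16 (SE, adjusted p = 0.0207).

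The other pericyte genes overlapped between groups. Rgs5, a regulator of G protein signalling that is a widely used pericyte marker, had 13.5, 12.4, 10.8 and 11.2 FPKM in morphine replicates 1 to 4, against 12.7, 15.5, 14.3 and 15.8 in saline replicates 1 to 4. Only saline replicate 1 lay within the morphine range, and the change was -0.26 ± 0.12 (SE, adjusted p = 0.251). Pdgfrb, the receptor through which pericytes are recruited, had 2.92, 3.96, 3.03 and 3.30 FPKM in morphine replicates 1 to 4, against 3.11, 5.14, 5.10 and 4.73 in saline replicates 1 to 4. Again saline replicate 1 alone overlapped, with a change of -0.35 ± 0.16 (SE, adjusted p = 0.266). Kcnj8, the pore subunit of the ATP-sensitive potassium channel of pericytes, had 1.57, 2.2, 2.65 and 1.51 FPKM in morphine replicates 1 to 4. In saline replicates 1 to 4 it had 3.04, 2.99, 2.98 and 1.88, so that saline replicate 4 overlapped the morphine range (change -0.32 ± 0.18 SE, adjusted p = 0.335). Abcc9, the regulatory subunit of the same channel, lies 16.2 kb from Kcnj8 on chromosome 6. It lay between 0.27 and 0.67 FPKM in morphine and between 0.37 and 1.34 in saline libraries and was not tested.

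The smooth muscle genes Acta2 and Tagln were above the morphine range in saline replicates 1 to 3, most of all in saline replicate 3. Myh11, untested and under 1 in every library, was above it only in saline replicate 3. Acta2, smooth muscle actin, had 1.16, 3.64, 3.24 and 1.37 FPKM in morphine replicates 1 to 4, against 4.64, 4.77, 13.99 and 2.05 in saline replicates 1 to 4. Tagln, the actin-binding protein transgelin, had 1.90, 1.63, 1.21 and 2.21 FPKM in morphine replicates 1 to 4, against 3.99, 2.93, 10.9 and 1.14 in saline replicates 1 to 4. In both, saline replicate 3 was the highest library and saline replicate 4 lay within or below the morphine range. Neither passed (changes of -0.97 ± 0.43 and -0.80 ± 0.41, SE; adjusted p = 0.242 and 0.311), and without saline replicate 3 the changes were -0.55 and -0.36. Exons of Tagln overlap those of Pcsk7, which averaged 6.77 FPKM, and strand use is not given, so the value of Tagln is uncertain.

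**Figure D4:**
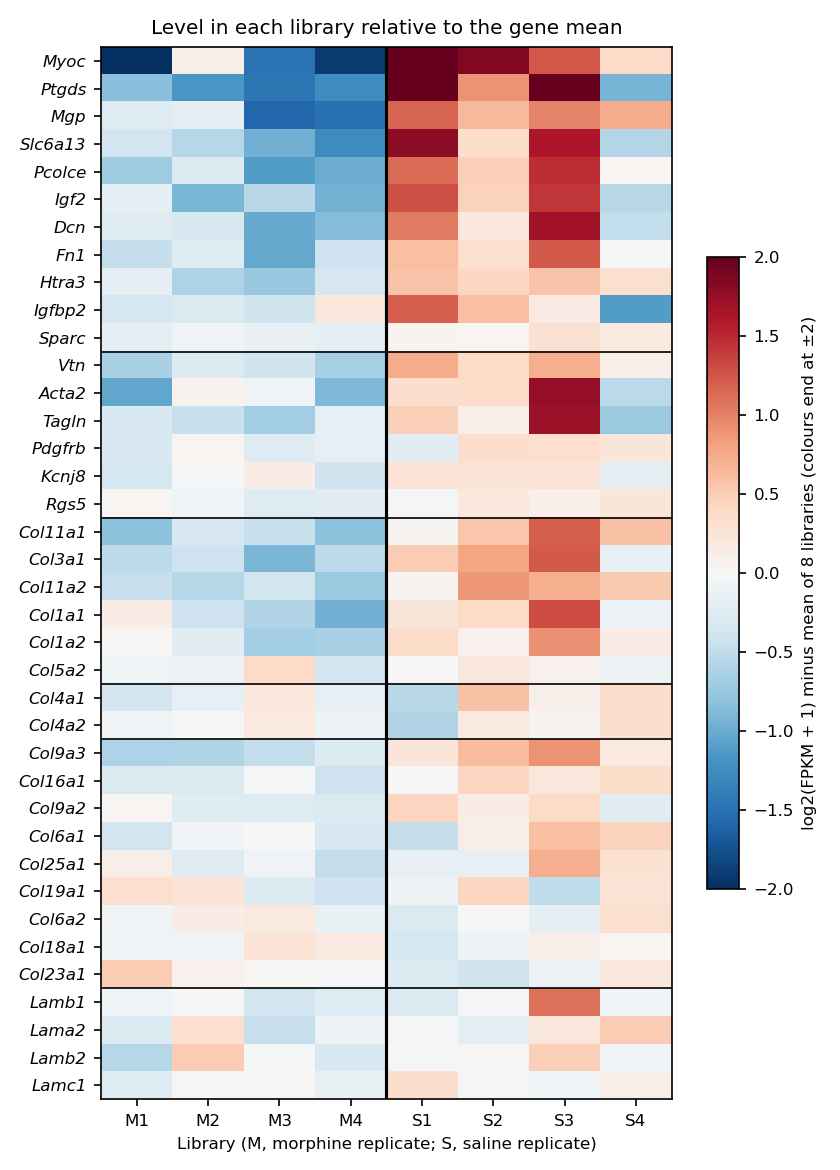
Level of 38 tested members in each library, as log2(FPKM + 1) minus the gene's mean over the 8 libraries; red is above and blue below that mean, and colours end at ±2. Most meningeal genes are blue in M1 to M4 and red in S1 and S3; most laminins are paler.

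Among fibril collagens 3 of 6 tested fell and none rose, with a median change of -0.99. Without Col3a1, which reached an FPKM of 1 in no morphine library, 2 of 5 fell, with a median of -0.913. Limma had 5 of the 6 lower at an unadjusted p under 0.05. With single libraries left out, between 0 and 3 passed, 0 of them without morphine replicates 1, 2, 3 or 4 or saline replicate 2. Col11a1 and Col11a2 encode the alpha 1 and alpha 2 chains of type XI collagen, which in cartilage nucleates fibrils. Col11a1 is ENSMUSG00000027966 on chromosome 3, 114030540 to 114220718, plus strand, and Col11a2 is ENSMUSG00000024330 on chromosome 17, 34039437 to 34066685, plus strand. Col11a1 had 0.56, 1.21, 1.03 and 0.56 FPKM in morphine replicates 1 to 4, against 1.85, 3.05, 5.36 and 3.14 in saline replicates 1 to 4. Col11a2 had 1.26, 1.09, 1.42 and 0.86 FPKM in morphine replicates 1 to 4, against 2.23, 4.66, 4.14 and 3.48 in saline replicates 1 to 4. Neither overlapped between groups, with changes of -1.20 ± 0.24 (SE, adjusted p = 0.035) and -1.08 ± 0.19 (SE, adjusted p = 0.0264). Each passed without any of saline replicates 1, 3 and 4 and missed the threshold without any other library.

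Col3a1 is the fibril chain gene typical of vessel walls and soft connective tissue (ENSMUSG00000026043, chromosome 1, 45311538 to 45349706, plus strand). It had 0.73, 0.86, 0.32 and 0.73 FPKM in morphine replicates 1 to 4. In saline replicates 1 to 4 it had 2.51, 3.29, 4.78 and 1.25. Every morphine value was under 1, and the change was -1.18 ± 0.26 (SE, adjusted p = 0.0462). With 1 library left out it passed only without saline replicate 4. Col5a2, whose chain is built into the same kind of fibrils, lies 24.6 kb from Col3a1 on chromosome 1 and averaged 1.04 ± 0.47 FPKM in morphine and 1.15 ± 0.21 in saline libraries (SD, n = 4 each; change -0.10 ± 0.18 SE, adjusted p = 0.807). It was named after its value was seen, for its place beside Col3a1, and the difference between the neighbours was not tested.

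The genes of type I collagen, the main collagen of connective tissue, did not pass. Col1a1 had 3.09, 1.79, 1.45 and 0.90 FPKM in morphine replicates 1 to 4, against 3.37, 3.86, 8.20 and 2.42 in saline replicates 1 to 4. Col1a2 had 4.15, 3.38, 2.17 and 2.24 FPKM in morphine replicates 1 to 4, against 5.50, 4.36, 8.55 and 4.58 in saline replicates 1 to 4. Both were highest in saline replicate 3, Col1a2 did not overlap between groups, and Col1a1 did (changes of -0.91 ± 0.31 and -0.75 ± 0.22, SE; adjusted p = 0.141 and 0.0983).

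Of the 6 type IV collagen genes, 2 were tested, Col4a1 and Col4a2, and neither passed. Col4a1 and Col4a2 encode the chains of the common vascular form, and they overlap head to head by 22 bases on chromosome 8. Col4a1 had 3.68, 4.38, 6.00 and 4.39 FPKM in morphine replicates 1 to 4, against 3.09, 8.01, 5.46 and 6.69 in saline replicates 1 to 4. Col4a2 had 4.69, 4.95, 5.88 and 4.59 FPKM in morphine replicates 1 to 4, against 2.95, 5.75, 5.23 and 6.65 in saline replicates 1 to 4. In both genes saline replicate 1 was the lowest of the 8 libraries. The changes were -0.24 ± 0.23 and 0.01 ± 0.20 (SE; adjusted p = 0.619 and 0.988). Col4a5, a chain of the minor form, lay between 0.26 and 0.52 FPKM in morphine and between 0.41 and 1.08 in saline libraries, and Col4a3, Col4a4 and Col4a6 stayed under 1 throughout.

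Among the 27 other collagens 1 of 9 tested fell and none rose, with a median change of -0.35 (-0.22 without saline replicate 3). Limma had 2 lower and 0 higher at an unadjusted p under 0.05. The gene that fell was Col9a3, which encodes a chain of type IX collagen, a collagen that coats fibrils in cartilage (ENSMUSG00000027570, chromosome 2, 180597790 to 180622189, plus strand). It had 4.02, 4.06, 4.56 and 5.41 FPKM in morphine replicates 1 to 4, against 8.10, 10.9, 13.4 and 7.85 in saline replicates 1 to 4. The groups did not overlap, with a change of -0.98 ± 0.18 (SE, adjusted p = 0.0269). It passed without any of saline replicates 1, 3 and 4 and missed the threshold without any other library. The partner chain gene Col9a2, named after its value was seen, averaged 1.71 ± 0.30 FPKM in morphine and 2.54 ± 0.70 in saline libraries (SD, n = 4 each; adjusted p = 0.267), and Col9a1 stayed under 1.

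Col6a1, a chain of the beaded filaments of type VI collagen, had the highest level of all collagens per unit of length. It had 27.8, 35.0, 36.5 and 29.3 FPKM in morphine replicates 1 to 4, against 25.9, 39.8, 55.5 and 50.3 in saline replicates 1 to 4. The groups overlapped through saline replicate 1 (change -0.36 ± 0.21 SE, adjusted p = 0.374). Col6a2, 85.2 kb away on chromosome 10, averaged 5.81 ± 0.76 FPKM in morphine and 5.55 ± 1.24 in saline libraries (SD, n = 4 each; adjusted p = 0.853). Col6a3, the third chain of the usual trimer, stayed under 1, so the 3 chain genes were far from equal in level. Col25a1, a membrane collagen made by neurons, averaged 4.63 ± 1.00 FPKM in morphine and 6.33 ± 2.25 in saline libraries (SD, n = 4 each; adjusted p = 0.404).

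No laminin chain passed: the 5 tested genes had a median change of -0.21, and limma had 0 lower and 0 higher at an unadjusted p under 0.05. The median was -0.08 without saline replicate 3 and -0.41 without morphine replicate 2. Lamb2, a beta chain of vascular and synaptic basement membrane, had 3.34, 8.24, 5.38 and 4.17 FPKM in morphine replicates 1 to 4, against 5.31, 5.57, 8.01 and 5.27 in saline replicates 1 to 4. Lamb1, the other common beta chain, had 2.70, 2.88, 2.04 and 2.27 FPKM in morphine replicates 1 to 4, against 2.21, 2.81, 7.36 and 2.77 in saline replicates 1 to 4. Saline replicate 3 alone stood above the others for Lamb1, and the groups overlapped for both genes (adjusted p = 0.664 for Lamb2 and 0.493 for Lamb1).

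Lama2, the alpha chain made by pericytes and astrocytes, averaged 2.12 ± 0.78 FPKM in morphine and 2.71 ± 0.81 in saline libraries (SD, n = 4 each; adjusted p = 0.539). The untested Lamb3, a beta chain best known from skin, lay between 0.05 and 0.43 FPKM in morphine and between 0.45 and 4.77 in saline libraries, the highest being saline replicate 3.

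Genes that act on this matrix were read from the same fit. Of 27 tested genes for basement membrane partners, elastic fibres and other matrix proteins, 2 fell, none rose and 25 did not pass, with a median change of -0.19. Efemp1, a fibulin gene, averaged 3.58 ± 0.82 FPKM in morphine and 11.6 ± 4.39 in saline libraries (SD, n = 4 each; adjusted p = 0.0207). Bgn, the gene of the proteoglycan biglycan, averaged 2.52 ± 0.64 FPKM in morphine and 5.35 ± 1.23 in saline libraries (SD, n = 4 each; adjusted p = 0.0457). Prelp, a related proteoglycan gene, had a change of -0.71 ± 0.19 (SE, adjusted p = 0.0748). With 1 library left out, Efemp1 passed in 5 of 8 fits, Bgn in none, and Prelp only without saline replicate 4. The number of these matrix genes that passed then ranged from 0 to 3.

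Of 21 tested genes for synthesis, folding and crosslinking of collagen, 1 rose, none fell and 20 did not pass, with a median change of -0.09. P4ha1, a catalytic subunit of the prolyl hydroxylase that stabilises the collagen helix, averaged 21.9 FPKM in morphine and 15.9 in saline libraries (change 0.44 ± 0.10 SE, adjusted p = 0.0471). Among fits with 1 library left out it passed only without saline replicate 4. The procollagen peptidase gene Adamts2 had a change of 0.52 ± 0.16 and the crosslinking enzyme gene Loxl1 of -0.56 ± 0.19 (SE; adjusted p = 0.115 and 0.145).

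Among 17 tested proteases and inhibitors 2 fell, none rose and 15 did not pass (median -0.20). Timp3, a metalloproteinase inhibitor gene, averaged 23.1 ± 3.36 FPKM in morphine and 38.4 ± 5.07 in saline libraries (SD, n = 4 each; adjusted p = 0.0319). Reck, a membrane-anchored inhibitor gene, averaged 0.70 ± 0.08 FPKM in morphine and 1.67 ± 0.22 in saline libraries (SD, n = 4 each; adjusted p = 0.0377) and entered the test through the saline libraries alone. The protease gene Mmp15 had a change of -0.63 ± 0.25 (SE, adjusted p = 0.201). With 1 library left out Timp3 passed only without saline replicate 3 or 4, and Reck only without saline replicate 4.

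Of 17 tested receptors for collagen and laminin none passed, with 6 lower and 1 higher at an unadjusted limma p under 0.05. The smallest p belonged to the inhibitory collagen receptor gene Lair1, the integrin gene Itgb5 and the syndecan gene Sdc4 (changes of -0.43 ± 0.13, -0.43 ± 0.13 and -0.37 ± 0.13, SE; adjusted p = 0.0989, 0.108 and 0.147). Of 21 tested genes of TGF-beta and PDGF signalling 1 fell, none rose and 20 did not pass (median -0.015). The morphogen gene Bmp4 averaged 1.84 FPKM in morphine and 4.01 in saline libraries (change -0.83 ± 0.18 SE, adjusted p = 0.0461), and passed only without saline replicate 4 when 1 library was left out. Bmp7 and the growth factor gene Pdgfc did not pass (changes of -0.98 ± 0.23 and 0.68 ± 0.19, SE; adjusted p = 0.0514 and 0.091), and Bmp7 passed without saline replicate 4 (adjusted p = 0.03).

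Markers of the same cell types that are not members were read beside them. Of 19 tested markers of fibroblasts and meninges 3 fell, none rose, and all 19 had negative changes (median -1.11). Their summed level ran from 56.99 to 93.42 FPKM in morphine libraries and from 93.43 to 266.8 in saline libraries, lowest of the saline libraries in saline replicate 4. None of the 27 listed was at 0 in every library, and 2 stayed under 1 throughout. The most abundant, Islr, averaged 10.4 ± 5.32 FPKM in morphine and 19.5 ± 11.5 in saline libraries (SD, n = 4 each). Efemp1, Bmp7, Fbln1, Ogn, Pdgfra and Bmp6 belong to this list as well as to the lists above. Over all pathway and marker lists, 9 genes are in 2 or more. When single libraries were left out, between 0 and 10 of these markers passed, with 3 without saline replicate 3 and 10 without saline replicate 4. Of 12 tested mural markers none passed, with 4 lower and 0 higher at an unadjusted limma p under 0.05 (median -0.34). They summed to between 35.1 and 44.2 FPKM in morphine and between 46.3 and 63.7 in saline libraries.

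Endothelial markers, of the cells that the vascular matrix surrounds, had 4 of 18 lower and a summed level of 229.3 to 259.2 FPKM in morphine and 317.4 to 343.8 in saline libraries. Astrocyte markers had 3 of 18 lower, with summed levels of 2168 to 2661 FPKM in morphine and 3046 to 3960 in saline libraries. Striatal neuron markers had 15 of 23 lower, and cortical neuron markers 1 of 14 higher. Of the striatal markers that fell, Isl1 and Sh3rf2 entered the test through the saline libraries alone. Choroid plexus and ependymal markers had 1 of 6 tested lower and 1 higher. The lower gene, Clic6, entered the test through the saline libraries alone. Ttr, the defining choroid plexus gene, was between 0.06 and 12.7 FPKM in morphine and between 0.94 and 29.0 in saline libraries. Blood markers had 3 of 7 lower, the neutrophil genes Ngp, S100a8 and S100a9. The haemoglobin genes Hba-a1, Hba-a2, Hbb-bs and Hbb-bt did not pass (limma adjusted p between 0.324 and 0.688). None of 15 oligodendrocyte or 12 microglial markers passed (8 and 0 lower at an unadjusted limma p under 0.05). With 1 library left out, each of these counts reached 0 in at least 1 fit. The part of these other cell types in the changes of the members was not tested.

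**Figure D5:**
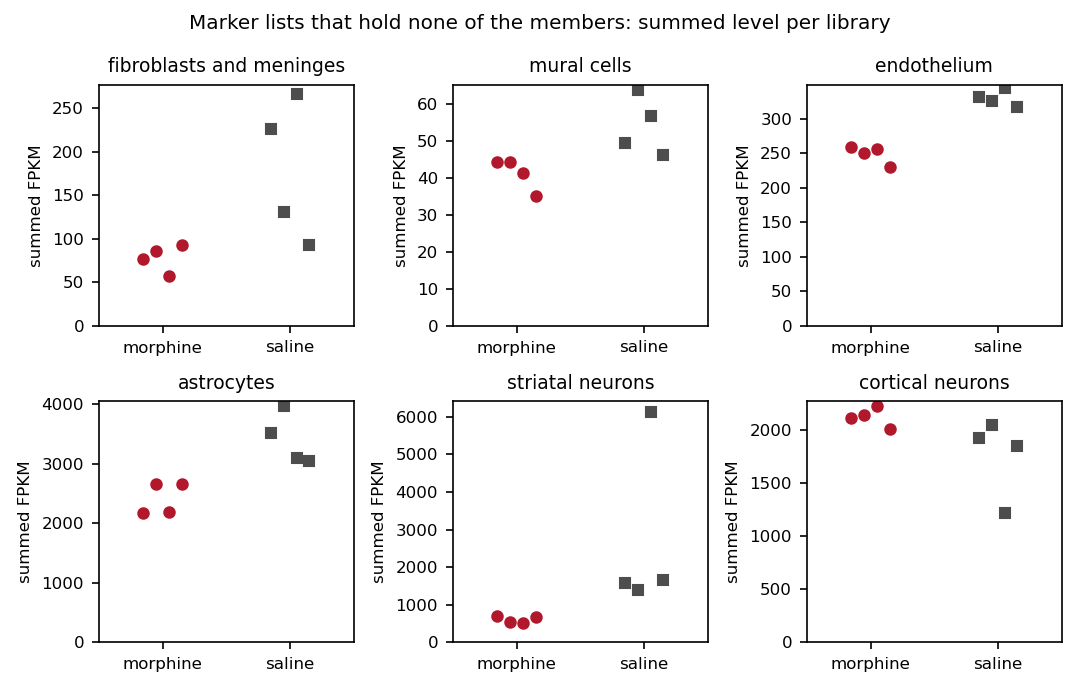
Summed FPKM in each library of 6 marker lists that hold none of the members (circles, morphine; squares, saline). Endothelial and astrocyte sums do not overlap between groups; the fibroblast and meningeal sum of the lowest saline library (93.43) nearly meets the highest morphine library (93.42).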

How the data were processed

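The authors deposited FPKM values in 1 table with a column for every library. Per the labels' protocols, cDNA was made from Trizol-extracted total RNA with an oligo-dT primer and template switching, then amplified by PCR. Copies from PCR are not told apart, and a 3' or length bias would affect long collagen transcripts. The tools named, per the submitters' processing notes, are RSEM, StringTie 1.3.1, HISAT2, Bowtie2 2.2.8 and fastp 0.18.0, with build mm10. The role of each and the use of strand are not stated in what was used here. To see whether read counts could be recovered, 8777 low values were divided by the lowest nonzero value of their gene. Of the quotients 18.9% were whole within 0.1, where even spread gives 20%, so no count model was used.

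Symbols and coordinates came from GENCODE M21 (GRCm38; 22232 of 22337 identifiers matched). RefSeq promoters matched 53 of 75 members. A gene was tested where 4 or more libraries reached an FPKM of 1, as log2(FPKM + 1), with limma 3.58.1 in R 4.3.3 (mean-variance trend, two-sided, no block), a procedure tested on simulated data. Alternatives varied the pseudocount, filter, trend, scaling, covariates, pairing and libraries. Named are the members past the threshold, the 20 listed by symbol, the 4 most abundant of each collagen class and of laminins, and the 3 pathway genes with the smallest p; 1 laminin is not reported here. The members and lists were chosen with earlier results of these data known. No pair of libraries was a copy (0.546 to 1.22% identical values).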

Additional observations from a re-analysis of the deposited data

Results flagged for a closer look

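In 68 sets of 4 values (34 named members, morphine and saline libraries apart), 4 held a library far from the other 3; chance gives about 1 in 20 sets. Igfbp2 had 46.18 FPKM in morphine replicate 4, against 29.9 to 32.4 in the other morphine libraries. Kcnj8 had 1.88 FPKM in saline replicate 4, against 2.98 to 3.04 in the other saline libraries. Lamb1 had 7.36 FPKM in saline replicate 3, against 2.21 to 2.81 in the others, and Lamb2 had 8.01 in the same library, against 5.27 to 5.57.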

How the results depend on the processing

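The 9 members also fell with a pseudocount of 0.1 or 0.5, without the mean-variance trend, with a filter on the mean, with medians set equal, and with mitochondrial genes removed. Without a filter on low values 17 genes in all and 0 members passed (33 members lower at an unadjusted limma p under 0.05). At an FPKM of 5, 15 members were tested and 5 fell. With 1 library left out, between 0 and 450 genes and between 0 and 14 members passed, with medians of -0.576 to -0.358.

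Same-numbered libraries did not deviate together (correlations of 0.0522, 0.0375, -0.0592 and -0.205), so the numbers gave no sign of pairing. With 4 libraries per group this check cannot show whether libraries shared a batch or litter. With a replicate block 5 genes and 0 members passed (19 members lower by limma's unadjusted p), with adjusted p between 0.0537 and 0.0937 for the 9. With the striatal list as covariate 3 genes and 0 members passed (5 members lower by the unadjusted p), and with the endothelium list 0 and 0 (811 genes in either direction and 0 members lower by the unadjusted p), the median of the members then being 0.029. Neither the striatal nor the endothelial levels overlap between groups, so neither covariate can be told apart from morphine. Without Col3a1, left out after seeing the data, 8 members fell.

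Signs turned in 30 of 573 values for named members. Col4a2 turned to -0.032 with mitochondrial genes removed, -0.056 without morphine replicate 3 and -0.19 without saline replicate 1, and Col6a2 to -0.016 without saline replicate 1; over the fits with 1 library left out Col4a2 reached at most 0.128 and Col6a2 0.184. With the striatal covariate the changes were 0.485 (Acta2), 0.339 (Col1a1), 0.106 (Col1a2), 0.486 (Col25a1), 0.177 (Col6a1), -0.12 (Col6a2), 0.259 (Dcn), 0.898 (Lamb1), 0.197 (Lamb2) and 0.898 (Tagln). With the endothelial covariate they were 1.113 (Acta2), 0.249 (Col11a1), 1.017 (Col1a1), 0.398 (Col1a2), 0.823 (Col25a1), 0.262 (Col4a1), 0.773 (Col6a1), 0.338 (Dcn), 0.029 (Fn1), 0.181 (Lama2), 1.466 (Lamb1), 0.666 (Lamb2), 0.354 (Pdgfrb), 0.046 (Rgs5), 0.015 (Sparc) and 0.866 (Tagln). The cause was not tested. Unknown read depth limits the low members most.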
